A study of Mus musculus with 11 samples.

Results

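PD-L1high beta cells were compared with PD-L1low beta cells, both sorted from IFNγ-treated islets, by RNA-seq of 4 and 3 libraries out of 11 in the series. Islets came from C57BL/6 mice, given in the methods as males of 12 weeks, and all 7 samples had 20 h of culture with the cytokine IFNγ at 50 pg/mL. Dispersed cells were gated as EpCam-positive cells without CD45, TER119 or CD31, low in CD24 and positive for CD71, and then divided by the amount of PD-L1 on the cell surface. PD-L1high libraries carry the replicate numbers 1 to 4 and PD-L1low libraries the numbers 2 to 4, so PD-L1low has no library of replicate 1. The 4 control libraries, of beta cells from islets that received no IFNγ, entered the model for the estimate of spread and are quoted beside the sorted groups. How many mice gave the cells of a library is not given in the sources used here. Of 55487 genes in the files, 16252 passed a filter on low counts and were tested.

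IFNγ binds a receptor whose associated kinases JAK1 and JAK2 start a signal to the nucleus. Factors activated by it bind a motif called GAS in the promoters of target genes, among them *Irf1*, whose product acts on a related motif, the ISRE, and widens the response. PD-L1, encoded by *Cd274*, is one target of this pathway and restrains T cells through its receptor PD-1, and other targets present peptides on MHC class I or act against intracellular pathogens.

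The 7 sorted libraries held from 10422018 to 14742192 counts. Mitochondrial genes took from 5.55% to 11.9% of the counts in PD-L1high and from 8.18% to 9.54% in PD-L1low libraries. PD-L1high replicate 4 had the fewest genes with a count, 17416, against 18551 to 21708 in the other 6. A gene's level is its CPM, the count per 1e6 counts of the TMM-scaled library, listed in the order of the replicate numbers. *Cd274* stood at 205, 279, 213 and 172 CPM in PD-L1high and 47, 30.5 and 36.9 CPM in PD-L1low cells, with no overlap. Its protein divided the cells, so this difference is given as a description of the sort. *Ins2*, an insulin gene, stood at 24390, 38225, 33208 and 42404 CPM in PD-L1high and 32852, 33586 and 31937 CPM in PD-L1low cells. Of 61 markers of exocrine, duct, vascular, stromal, glial, immune and blood cells, 13 were expressed highly enough to be tested and 0 differed by the test (edgeR; 0 at an unadjusted p under 0.05, when 8.52% of all tested genes were, and 0 called by DESeq2 or limma-voom). The largest sum of these classes was that of 7 duct markers, at 394.5 to 810.8 CPM in PD-L1high and 523.4 to 580.7 CPM in PD-L1low libraries. *Spp1*, 1 of these, stood at 465.6 CPM in PD-L1high replicate 1 and at 104.3 to 149.3 CPM in the other PD-L1high libraries. Summed macrophage markers lay at 9.79 to 12.3 CPM in PD-L1high and 7.51 to 10.9 CPM in PD-L1low libraries, and 5 of the 9, *Adgre1*, *Tyrobp*, *C1qb*, *C1qc* and *Lyz2*, were at 0 in all 7. Among the surface proteins of the gate, *Tfrc*, which encodes CD71, was higher in PD-L1high cells (log2 fold change 0.80, SE 0.13, adjusted p = 0.00609), with 392, 305, 355 and 315 CPM against 160.3, 210.2 and 200.1 CPM. The *Tfrc* call was lost without PD-L1high replicate 3, or PD-L1low replicate 2 (adjusted p up to 0.0607). *Epcam* (log2 fold change 0.13), *Cd24a* (0.88) and *Itga6* (-0.25), which encodes CD49f, did not pass the test.

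In the model, 104 genes (0.64% of those tested) were higher and 15 (0.0923%) were lower in PD-L1high than in PD-L1low cells, 119 in all (0.732%), at an adjusted p under 0.05 (edgeR's quasi-likelihood test, Benjamini-Hochberg adjustment over all tested genes). The 104 include *Cd274*, which was fitted with all other genes and whose call is read as no finding. The size of the difference was at least 2-fold in 74 of the higher genes and at least 4-fold in 36, but in 6 and 0 of the lower genes. The libraries of both groups did not overlap for 101 of the 104 (717 tested genes, 4.41%, lay apart in this direction) and for 12 of the 15 (584, 3.59%). Lists of genes linked to interferon responses, called interferon lists here, held 64 of the 104 and 0 of the 15. They held 167 of the 16252 tested genes, and not every member is known to be induced by interferon. The lists also leave out some interferon targets, among them *Cd274* and *Ly6e*, which count here with the higher genes on no interferon list. With each of the 11 libraries left out in turn, 53 of the 104 and 2 of the 15 calls were kept in every case, and no called gene changed direction in any setting. The count of 119 calls fell to between 64 and 78 without PD-L1high replicate 2 or 3 or any 1 PD-L1low library, values that are given by library in the closing section.

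**Figure D1:**
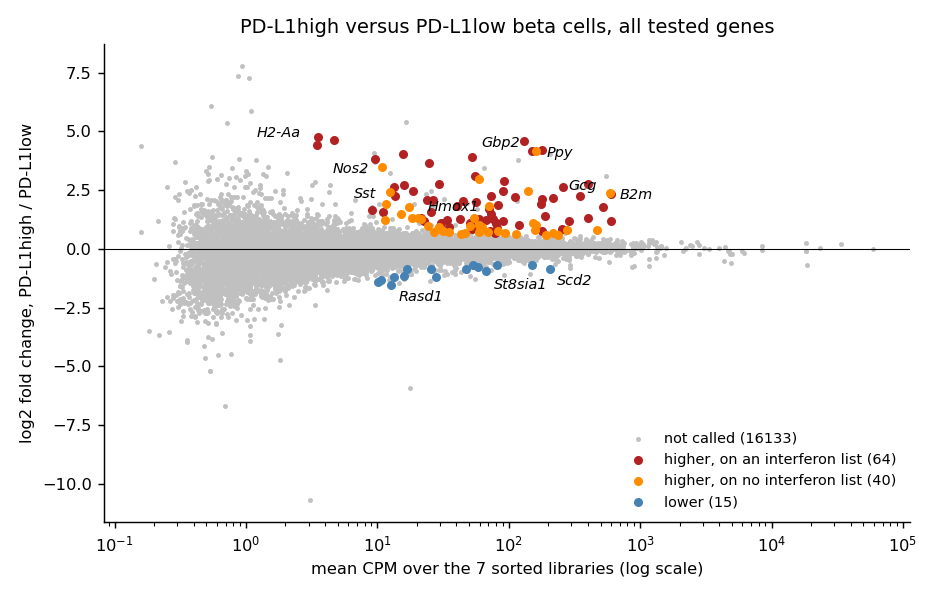
Each tested gene by its mean CPM over the 7 sorted libraries (log axis) and its log2 fold change between PD-L1high and PD-L1low cells. The 64 called genes on interferon lists and the 40 called higher on none lie above 0, and the 15 lower genes, all under a log2 change of 1.53 in size, lie below it.

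No gene of the IFNγ receptor and its kinases passed the test, while some of the factors that act after them did. Of the 4 genes for the receptor chains and kinases, 0 were called (edgeR; 0 at an unadjusted p under 0.05), and DESeq2 and limma-voom called 0 as well. The log2 fold change was 0.26 for *Ifngr1*, with a 95% interval from -0.19 to 0.70, and 0.33 for *Ifngr2*, with an interval from -0.56 to 1.21. The intervals for *Jak1* (from -0.30 to 0.21) and *Jak2* (from -0.08 to 0.48) leave out a 2-fold difference, which that of *Ifngr2* does not. *Stat2*, a transcription factor of the type I interferon response, was higher (log2 fold change 1.11, SE 0.22, adjusted p = 0.042), a call that was lost without any 1 sorted library of replicates 2 to 4, or control replicate 4 (adjusted p up to 0.344), without the replicate block (0.393) and with another scaling or filter (up to 0.0906). *Irf1*, *Irf7* and *Irf9* were the 3 higher genes of 7 tested IRF genes. *Irf1* stood at 120.1, 148, 110.2 and 105 CPM in PD-L1high and 53.7, 44.9 and 54.5 CPM in PD-L1low cells (log2 fold change 1.17, SE 0.14, adjusted p = 0.000446). *Irf7* stood at 41.7, 43.2, 42.1 and 32.7 CPM and 11.3, 9.84 and 4.63 CPM (log2 fold change 2.10, SE 0.27, adjusted p = 0.000804). *Irf9* had a log2 fold change of 0.84 (adjusted p = 0.0383), lost without any 1 sorted library of replicates 2 to 4, or control replicate 4 (adjusted p up to 0.307), without the replicate block (0.0865) and with another scaling or filter (0.0665). Of 13 tested genes that dampen JAK-STAT signals, *Usp18*, which removes ISG15 from proteins and acts on the type I receptor, was higher (log2 fold change 1.19, SE 0.21, adjusted p = 0.0084). This call was lost without PD-L1high replicate 2 or 3, or PD-L1low replicate 2 or 3 (adjusted p up to 0.11). *Socs1*, an inhibitor of JAK kinases, had few counts and a log2 fold change of 1.42 with an interval from -0.12 to 2.96.

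GTPases that attack the vacuoles of intracellular pathogens were higher in PD-L1high cells, with log2 fold changes from 2.07 to 4.58 among the called IRG and GBP genes. All 7 tested IRG genes and all 10 tested GBP genes had PD-L1high libraries above all PD-L1low libraries, and 4 and 7 of them passed the test (limma-voom called 7 and 10). The median log2 fold change was 3.12 on the IRG list and 3.01 on the GBP list, against -0.00418 over all tested genes. *Gbp2* stood at 342, 296, 210.4 and 161 CPM in PD-L1high and 18.4, 14.2 and 5.41 CPM in PD-L1low cells (log2 fold change 4.18, SE 0.30, adjusted p = 8.08e-05). Its lowest PD-L1high library was far above the highest PD-L1low library, and within each group replicate 4 had the lowest level. *Gbp7* stood at 285, 304, 262 and 236 CPM and 67.6, 57.4 and 44.5 CPM (log2 fold change 2.14, SE 0.21, adjusted p = 0.000104), and *Gbp8* had a log2 fold change of 2.90 (adjusted p = 3.92e-05). *Gbp4* had the largest log2 fold change of the family, 4.58 (adjusted p = 0.042), from 12, 8.43 and 3.86 CPM in PD-L1low to 268, 233, 213 and 182 CPM in PD-L1high cells. The *Gbp4* call was lost without any 1 sorted library of replicates 2 to 4, or control replicate 2 or 3 (adjusted p up to 0.344). That of *Gbp3* (log2 fold change 3.12, SE 0.45, adjusted p = 0.0319) was lost without PD-L1high replicate 2 or 3, or PD-L1low replicate 2, 3 or 4, or control replicate 3 (adjusted p up to 0.271) and without the replicate block (0.0914), and that of *Gbp6* (log2 fold change 2.76, SE 0.38, adjusted p = 0.0276) was lost without PD-L1high replicate 2 or 3, or PD-L1low replicate 2, 3 or 4, or control replicate 2 (adjusted p up to 0.355) and without the replicate block (0.0703). *Gbp5* (log2 fold change 2.07, SE 0.19, adjusted p = 2.14e-05) kept its call without any single library but lost it without the replicate block (adjusted p = 0.41), and its levels were 86.3, 25.6, 25.2 and 14.8 CPM in PD-L1high against 6.71, 5.99 and 3.23 CPM in PD-L1low cells.

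Among IRG genes, *Igtp* stood at 323, 509, 444 and 348 CPM in PD-L1high and 79, 60.1 and 56.9 CPM in PD-L1low cells (log2 fold change 2.64, SE 0.16, adjusted p = 4.08e-07). *Irgm1*, a regulator of the other IRG proteins, had a log2 fold change of 2.26 (adjusted p = 8.6e-07), and *Irgm2* one of 2.19 (adjusted p = 0.00127). *Tgtp2* went from 23.3, 24.4 and 6.11 CPM in PD-L1low to 274, 364, 328 and 225 CPM in PD-L1high cells (log2 fold change 4.21, SE 0.44, adjusted p = 0.00737), and this call was lost without PD-L1high replicate 2 or 3, or PD-L1low replicate 2 or 3 (adjusted p up to 0.129). On a further list of predicted genes grouped here with the IRG family, 7 of 8 tested genes were higher, with a median log2 fold change of 3.87. *Gm4841* stood at 19.5, 35.5, 32.5 and 17.7 CPM in PD-L1high and 2.9, 0.739 and 1.76 CPM in PD-L1low cells (log2 fold change 4.02, SE 0.40, adjusted p = 0.000349), and had no count in any control library. *Gm12250* was likewise without a count in control cells and had a log2 fold change of 3.84 between the sorted groups (adjusted p = 0.000304). *F830016B08Rik* went from 8.78, 4.58 and 4.42 CPM to 72.1, 113, 96.4 and 70.4 CPM (log2 fold change 3.91, SE 0.48, adjusted p = 0.0122), a call lost without any 1 sorted library of replicates 2 to 4 (adjusted p up to 0.206) and in DESeq2 (0.181). *9930111J21Rik1* (log2 fold change 4.65, SE 0.75, adjusted p = 0.005) lost its call without PD-L1high replicate 2 or 3 (adjusted p up to 0.0719), *9930111J21Rik2* (log2 fold change 3.67, SE 0.59, adjusted p = 0.0415) without PD-L1high replicate 2 or 3, or PD-L1low replicate 2 or 3, or control replicate 2 (adjusted p up to 0.406), *Gm12185* (log2 fold change 2.71, SE 0.38, adjusted p = 0.00164) without PD-L1high replicate 2 or 3 (adjusted p up to 0.0893) and in DESeq2 (0.181), and *Gm4951* (log2 fold change 4.43, SE 0.87, adjusted p = 0.0251) without any 1 sorted library of replicates 2 to 4, or control replicate 4 (adjusted p up to 0.396) and without the replicate block (0.0591). Many of these genes are near copies or overlap one another, such as *Igtp* and *Irgm2*, so that reads may have been divided between them and their separate values are uncertain.

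Promoters of some genes called higher are shown as examples, so that GAS and ISRE motifs can be seen. Where a gene had several starts, one with a match was taken, so these lines do not stand for all called genes. In the wider window used below, 35 of 78 genes called higher with a promoter held either motif (44.9%). Of all tested genes with a promoter, 11.4% did. Each line gives the 250 bases before the transcription start in the RefSeq table for GRCm38.p6, with a match in capitals, 5′ to 3′ on the strand of the gene. The GAS motif was searched as TTCNNNGAA, which reads the same on both strands, and the ISRE as GAAA, NN and GAAA in a row on either strand, which reads TTTC, NN and TTTC on the other. Matches of both motifs could overlap. *Irf1* (chr11:53769764-53770013) has a GAS that begins 90 bases before the start. *Igtp* (chr11:58199306-58199555) has a GAS at 45 and an ISRE at 34 bases before it, and *Gbp7* (chr3:142530086-142530335) has a GAS at 106, a GAS at 87 and an ISRE at 53. *Gbp2* (chr3:142620413-142620662) has an ISRE at 59, *B2m* (chr2:122147437-122147686) one at 139 and *Tmem140* (chr6:34862896-34863145) one at 63. *Ppy* (chr11:102101320-102101569, minus strand) has neither.
Irf1: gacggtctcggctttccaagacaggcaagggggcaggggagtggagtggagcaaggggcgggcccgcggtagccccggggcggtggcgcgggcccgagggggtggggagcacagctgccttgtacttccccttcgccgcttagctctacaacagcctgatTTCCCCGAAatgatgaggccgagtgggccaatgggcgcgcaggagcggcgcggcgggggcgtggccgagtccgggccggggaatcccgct
Igtp: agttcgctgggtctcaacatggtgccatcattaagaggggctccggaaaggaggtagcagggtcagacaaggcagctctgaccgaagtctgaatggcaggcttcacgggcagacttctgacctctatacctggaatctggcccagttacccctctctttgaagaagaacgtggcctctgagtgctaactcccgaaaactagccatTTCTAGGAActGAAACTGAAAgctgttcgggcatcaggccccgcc
Gbp7: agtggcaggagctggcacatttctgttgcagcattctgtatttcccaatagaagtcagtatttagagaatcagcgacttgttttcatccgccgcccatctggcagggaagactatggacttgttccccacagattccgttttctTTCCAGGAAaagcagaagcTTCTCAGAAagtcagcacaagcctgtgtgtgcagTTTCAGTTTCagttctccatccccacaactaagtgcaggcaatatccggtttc
Gbp2: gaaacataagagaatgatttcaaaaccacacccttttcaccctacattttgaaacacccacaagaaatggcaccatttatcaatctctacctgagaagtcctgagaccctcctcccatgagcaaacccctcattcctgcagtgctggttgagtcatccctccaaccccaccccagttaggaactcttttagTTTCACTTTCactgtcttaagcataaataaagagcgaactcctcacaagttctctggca
B2m: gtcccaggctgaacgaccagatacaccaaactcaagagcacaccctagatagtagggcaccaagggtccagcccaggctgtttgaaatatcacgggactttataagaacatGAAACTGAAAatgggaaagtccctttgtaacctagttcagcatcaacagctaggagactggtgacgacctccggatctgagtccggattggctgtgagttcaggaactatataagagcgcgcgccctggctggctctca
Tmem140: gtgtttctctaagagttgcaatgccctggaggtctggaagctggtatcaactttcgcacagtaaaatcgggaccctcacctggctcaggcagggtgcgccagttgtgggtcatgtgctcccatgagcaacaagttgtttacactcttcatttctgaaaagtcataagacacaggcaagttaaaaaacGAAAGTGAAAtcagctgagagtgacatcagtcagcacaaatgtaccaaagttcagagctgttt
Ppy: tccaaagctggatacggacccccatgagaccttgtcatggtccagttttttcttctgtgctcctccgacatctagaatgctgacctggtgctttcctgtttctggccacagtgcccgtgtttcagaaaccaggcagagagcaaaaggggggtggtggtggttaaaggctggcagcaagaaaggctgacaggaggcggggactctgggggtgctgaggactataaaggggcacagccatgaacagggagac

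The table held a promoter for 10517 of the 16252 tested genes, in windows from 250 bases before to 50 after the start. An ISRE was found for 24 of 47 called genes on interferon lists (51.1%), for 8 of 31 other genes called higher (25.8%), for 0 of 9 genes called lower and for 3.66% of all tested genes. A GAS was found for 12 of the 47 (25.5%), 1 of the 31 (3.23%), 1 of the 9 (11.1%, *Dbp*) and 8.31% of all tested genes. Both motifs stood in 10 of the 47 promoters (21.3%) and in 0.447% of those of all tested genes. Over all 32851 promoters in the table the shares were 3.44% for the ISRE and 8.3% for the GAS. The interferon lists were chosen for known links to interferon, so their shares do not test the difference between the sorted groups. The 31 other genes include *Cd274* and so are not a set free of interferon targets. No share was taken for members of the interferon lists that were not called. A match describes the letters in this window and is not a measured binding site.

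**Figure D2:**
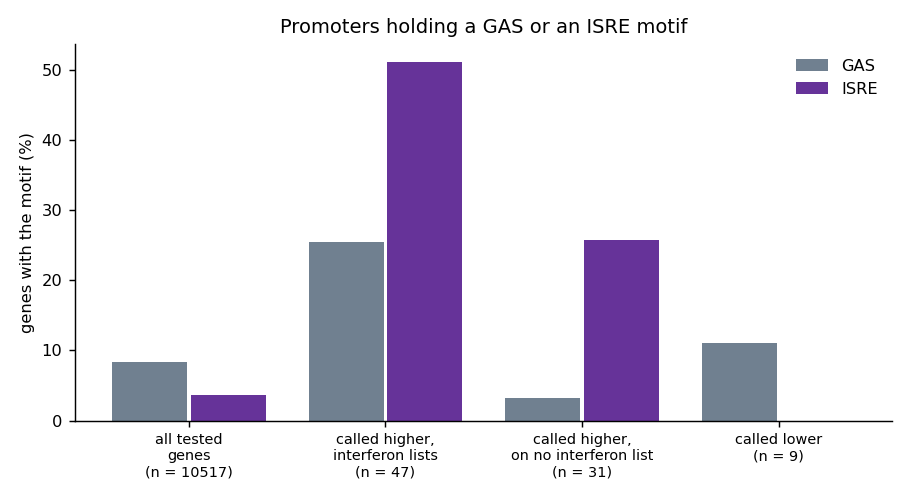
Percent of genes with a promoter in the RefSeq table that hold a GAS or an ISRE motif from 250 bases before to 50 after the start, for all tested genes and for 3 sets of called genes, with the number of genes under each pair of bars. The ISRE bar reaches 51.1% for called genes on interferon lists and 3.66% for all tested genes.

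Genes for several steps of antigen presentation by MHC class I were higher in PD-L1high cells. Of 11 tested genes that cut peptides, carry them or load them, 10 were higher and the median log2 fold change was 1.27. *Psmb8* and *Psmb10*, catalytic subunits of the immunoproteasome, had log2 fold changes of 2.00 (adjusted p = 2.22e-05) and 1.81 (adjusted p = 1.19e-05). *Tap1*, of the peptide transporter, stood at 122, 144, 119.6 and 102 CPM in PD-L1high and 37.5, 32.7 and 25.8 CPM in PD-L1low cells (log2 fold change 1.85, SE 0.16, adjusted p = 1.32e-05), with no overlap. *Tapbp*, which encodes the loading factor tapasin, had a log2 fold change of 1.34 (adjusted p = 6.87e-05). Of these 10 calls, that of *Psme2*, a subunit of the proteasome activator, was lost without PD-L1high replicate 3 (adjusted p = 0.0552). The constitutive catalytic subunits that the immunoproteasome replaces had 0 called genes of 3 tested (edgeR; 1 at an unadjusted p under 0.05, and 0 called by DESeq2 or limma-voom), with log2 fold changes from 0.17 to 0.50.

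Of 12 tested class I genes, 8 were higher. *B2m*, the light chain, stood at 1041, 739, 986 and 929.9 CPM in PD-L1high and 132, 196 and 169.9 CPM in PD-L1low cells (log2 fold change 2.35, SE 0.17, adjusted p = 1.58e-06). Per transcript length its mean level was 1475 TPM in PD-L1high and 246 TPM in PD-L1low cells, the highest PD-L1high TPM among the 119 called genes. *H2-T23*, a nonclassical heavy chain, stood at 116, 125, 109.8 and 91.1 CPM and 27.9, 21 and 21.6 CPM (log2 fold change 2.23, SE 0.13, adjusted p = 3.37e-07), and *H2-D1*, a classical one, at 371, 359, 412 and 363 CPM and 176, 189.5 and 143 CPM (log2 fold change 1.20, SE 0.12, adjusted p = 5.48e-05). For *H2-Q4* the log2 fold change was 1.48 (adjusted p = 6.87e-05). The *H2-Q* genes are close relatives, and their reads may be shared. Class II genes, which professional antigen-presenting cells express, were low. *H2-Aa*, a class II chain, was at 8.24, 6.2, 5.66 and 3.74 CPM in PD-L1high and 0.745, 0 and 0 CPM in PD-L1low cells (log2 fold change 4.77, SE 0.89, adjusted p = 0.0177), and was the 1 class II gene of 7 that passed the test, a call lost without PD-L1high replicate 1, 2 or 3, or PD-L1low replicate 3 or 4 (adjusted p up to 0.104) and with the 7 sorted or the 6 paired libraries alone (up to 0.0886). *H2-DMb1* was at 1.67, 0.954, 2.28 and 2.7 CPM and 0, 0.0739 and 0 CPM, and *Cd74*, the invariant chain, at 12.8, 3.5, 5.5 and 5.71 CPM and 0.662, 0.444 and 1.54 CPM. Both sat apart between groups without passing the test (adjusted p = 0.0788 and 0.182, edgeR), whereas DESeq2 called both (adjusted p = 0.0084 and 0.0122). Summed macrophage markers were as given above and their part in these values was not tested.

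**Figure D3:**
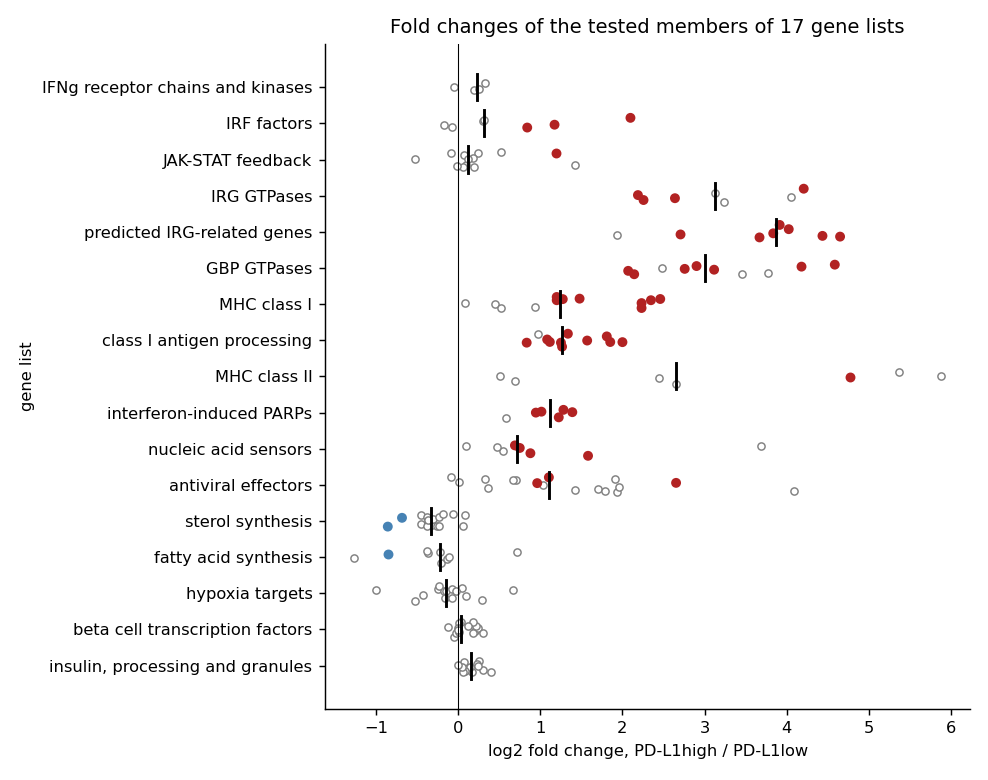
Log2 fold change between PD-L1high and PD-L1low cells for each tested member of 17 gene lists, with filled points for called genes (red higher, blue lower), open points for the rest and a black bar at the median of each list. The bars of the IRG and GBP lists lie at 3.12 and 3.01, and those of the sterol and hypoxia lists at -0.32 and -0.15.

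Other genes on the interferon lists differed in part. Over all 20 interferon lists, 64 of 167 tested genes were higher and 0 lower, 154 had a positive log2 fold change (49.5% of all tested genes had) and the median was 1.11. It stayed at 1.11 with *Cxcl11*, at 0 in all PD-L1low libraries, set to its lower bound, but 1 value of 167 could hardly move a median. Of 6 ADP-ribosyltransferases and partners on the PARP list, 5 were higher, among them *Parp12* (log2 fold change 1.28, SE 0.13, adjusted p = 5.46e-05) and *Parp14* (log2 fold change 1.39, SE 0.14, adjusted p = 6.45e-05). *Ube2l6*, an enzyme of ISG15 conjugation, stood at 68.9, 62.2, 78.5 and 58.3 CPM in PD-L1high and 14.6, 18.5 and 13.8 CPM in PD-L1low cells (log2 fold change 2.04, SE 0.20, adjusted p = 5.46e-05). *Herc6*, a ligase of the same system, had a log2 fold change of 1.70 (adjusted p = 0.00021). *Isg15* itself was barely detected, with at most 1.35 CPM in any PD-L1high library. Of 8 tested sensors of foreign nucleic acid, 4 were higher, with the RIG-I gene *Ddx58* at a log2 fold change of 0.88 (adjusted p = 0.0054), a call lost without PD-L1high replicate 2 or 3, or PD-L1low replicate 4 (adjusted p up to 0.075) and without the replicate block (0.0703). The MDA5 gene *Ifih1* (log2 fold change 0.75, SE 0.14, adjusted p = 0.021) lost its call without PD-L1high replicate 2, 3 or 4, or PD-L1low replicate 2 or 3 (adjusted p up to 0.199). Of 9 OAS and RNase L genes, 0 were called (edgeR; 3 at an unadjusted p under 0.05), although *Oasl2* stood at 168, 188, 193 and 149.8 CPM in PD-L1high and 46.5, 37.6 and 29 CPM in PD-L1low cells (log2 fold change 2.02, adjusted p = 0.185). DESeq2 called 2 of the 9, *Oasl2* (adjusted p = 0.00141) and *Oas1a*, and limma-voom 1, *Oas1a*. edgeR called *Oasl2* on the 7 sorted libraries alone (adjusted p = 1.05e-05). Among 17 antiviral effectors, *Bst2*, which tethers budding viruses, was higher (log2 fold change 2.65, SE 0.37, adjusted p = 0.00129), as were *Shisa5* (log2 fold change 0.96, SE 0.14, adjusted p = 0.00185) and *Ifi27* (log2 fold change 1.10, SE 0.17, adjusted p = 0.00371). DESeq2 called 8 of the 17 and limma-voom 5. The *Ifi27* call was lost without PD-L1high replicate 3, or PD-L1low replicate 3 (adjusted p up to 0.0677).

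Secreted and membrane proteins were also among the higher genes. *Serping1*, the C1 inhibitor of complement, stood at 299, 247, 245 and 249.8 CPM in PD-L1high and 66.8, 65.9 and 65.4 CPM in PD-L1low cells (log2 fold change 1.92, SE 0.12, adjusted p = 4.53e-07). Its PD-L1low libraries were nearly equal. *Il18bp*, which binds and neutralises IL-18, stood at 175, 156, 183 and 165 CPM and 38.4, 35.5 and 28.7 CPM (log2 fold change 2.21, SE 0.17, adjusted p = 3.1e-06). *Tnfsf10*, the gene of the death ligand TRAIL, stood at 151, 176, 133 and 107 CPM and 27.9, 20.7 and 20.2 CPM (log2 fold change 2.48, SE 0.19, adjusted p = 2.11e-06), and *Mlkl*, the effector of necroptosis, had a log2 fold change of 1.68 (adjusted p = 0.00726), lost without PD-L1high replicate 2 or 3, or PD-L1low replicate 3 or 4 (adjusted p up to 0.0783). *Cxcl10*, a chemokine for T cells, was at 82, 64.9, 29.5 and 15.3 CPM in PD-L1high and 6.87, 4.44 and 1.9 CPM in PD-L1low cells (log2 fold change 2.76, SE 0.42, adjusted p = 0.0173). This call was lost without PD-L1high replicate 3 or 4, or PD-L1low replicate 2, 3 or 4 (adjusted p up to 0.277) and without the replicate block (0.717). Of 7 tested checkpoint ligands other than *Cd274*, *Tnfrsf14*, the HVEM gene, was higher (log2 fold change 1.23, SE 0.23, adjusted p = 0.0177), lost without PD-L1high replicate 2 or 3, or PD-L1low replicate 2, 3 or 4 (adjusted p up to 0.148), and *Cd47*, the signal against phagocytosis, had a log2 fold change of 0.41 (adjusted p = 0.272).

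Many genes called higher lay close to one another in GRCm38 (GENCODE M21 positions). Chromosome 17 held 14 of them among 804 tested genes (1.74%), and 13 of the 14 lay between 33915899, the start of *Tapbp*, and 36042747, the end of *H2-T22*, the region of the mouse MHC. Chromosome 11 held 15 of 1147 (1.31%), with *Irgm1*, *Gm12185*, *9930111J21Rik1*, *9930111J21Rik2* and *Tgtp2* between 48861968 and 49064206. Over all tested genes the share was 0.64%. Chromosome 12 held 8 of 610 (1.31%), which were spread from 25093799 to 108894174, so a chromosome's share alone does not show that its genes lie close together. On chromosome 3, *Gbp5*, *Gbp7*, *Gbp3* and *Gbp2* lay between 142493978 and 142638008. Smaller groups were *Gbp8*, *Gbp4* and *Gbp6* on chromosome 5, *Parp14*, *Dtx3l* and *Parp9* on chromosome 16, *Psme1*, *Psme2* and *Irf9* on chromosome 14, and *Gm4951*, *Gm4841* and *F830016B08Rik* on chromosome 18.

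Of the 104 higher genes, 30 were on none of the lists. Leaving aside *Cd274*, *Pigr*, the receptor that carries polymeric antibodies across epithelia, had the smallest p among these and stood at 103, 64.9, 62.5 and 65.6 CPM in PD-L1high and 20.9, 31 and 30.5 CPM in PD-L1low cells (log2 fold change 1.30, SE 0.17, adjusted p = 0.000804). *Serpinb9*, an inhibitor of granzyme B, stood at 53.4, 68.5, 61.5 and 69.1 CPM and 33.9, 33.1 and 33.5 CPM (log2 fold change 0.97, SE 0.13, adjusted p = 0.000808), with nearly equal PD-L1low libraries. *Ly6e*, a surface protein that interferons induce, had a log2 fold change of 1.09 (adjusted p = 0.0024). *Tmem140*, whose promoter with an ISRE is printed above, stood at 27.7, 26.8, 23.7 and 22.7 CPM and 10.1, 4.88 and 5.69 CPM (log2 fold change 1.78, SE 0.26, adjusted p = 0.00209). *Pla2g16*, a phospholipase, differed by 1.30 (adjusted p = 0.00182) and *Ikbkg*, the NEMO subunit of the kinase upstream of NF-κB, by 0.75 (adjusted p = 0.0024). *Nampt*, an enzyme of NAD synthesis (log2 fold change 0.82, SE 0.13, adjusted p = 0.00465), lost its call without PD-L1high replicate 3 (adjusted p = 0.0521). *Lgals3bp*, a secreted glycoprotein, stood at 565, 631, 574 and 514 CPM and 374, 359 and 292 CPM (log2 fold change 0.79, SE 0.13, adjusted p = 0.00472), a call lost without PD-L1low replicate 4 (adjusted p = 0.0697). *Ly75*, the endocytic receptor DEC-205 (log2 fold change 1.47, SE 0.24, adjusted p = 0.00605), lost its call without PD-L1low replicate 2 or 3 (adjusted p up to 0.0718). *Snx10*, a sorting nexin (log2 fold change 1.00, SE 0.17, adjusted p = 0.00652), lost it without PD-L1high replicate 3 (adjusted p = 0.072), and *Cd200*, an inhibitory surface ligand (log2 fold change 0.84, SE 0.15, adjusted p = 0.00851), lost it without PD-L1high replicate 3, or PD-L1low replicate 2, 3 or 4 (adjusted p up to 0.104). The calls of *Tmem140*, *Pla2g16* and *Ikbkg*, and those of *Tspan8* and *Gstp1*, were lost when all libraries of replicate number 3 were left out.

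A smaller set of higher genes had control levels nearer to those of PD-L1high than of PD-L1low cells. This held for 11 of the 104, none of them on an interferon list, whereas control levels were nearer to PD-L1low cells for all 64 genes on interferon lists. Control levels were also nearer to PD-L1low cells for 29 of the 40 higher genes on no interferon list. Comparisons with control share the sorted libraries of the main comparison and are given as values. The 11 were *Ppy*, *Pyy*, *Gcg*, *Sst*, *Gpx3*, *Gpx2*, *Hmox1*, *Gstp1*, *Tspan8*, *Id2* and *Etv1*. An ISRE was found in 1 of the 10 with a promoter in the table, *Sst*, and a GAS in 0.

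**Figure D4:**
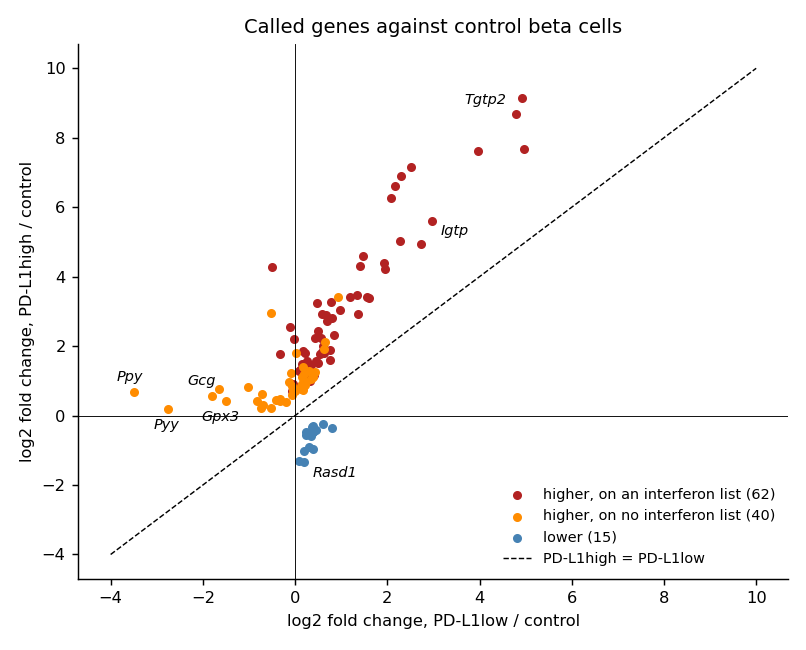
Log2 fold change against control in PD-L1low (horizontal) and PD-L1high cells (vertical) for 117 called genes, leaving out 2 with no count in any control library, with a dashed line where both are equal. Both axes use the same control libraries. *Ppy* and *Pyy* lie at -3.49 and -2.76 on the horizontal axis and 0.67 and 0.20 on the vertical one, and *Tgtp2* lies at 4.93 and 9.14.

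4 of the 11 encode hormones of other islet cells. *Ppy*, pancreatic polypeptide, stood at 169, 431, 243 and 234 CPM in PD-L1high, 20.8, 15.6 and 14 CPM in PD-L1low and 95.7, 273, 168 and 147 CPM in control libraries (log2 fold change 4.16, SE 0.14, adjusted p = 1.61e-10 between the sorted groups). PD-L1low libraries lay below all others, and against control *Ppy* was also higher in PD-L1high cells (log2 fold change 0.67, adjusted p = 0.00183). *Pyy*, peptide YY, stood at 63.7, 131, 104 and 77.6 CPM, 12.7, 11.2 and 15.8 CPM and 54.1, 109, 85.1 and 79.6 CPM in the same order (log2 fold change 2.96, SE 0.18, adjusted p = 4.08e-07), again with PD-L1low libraries lowest. *Gcg*, glucagon, stood at 445, 1308, 1104 and 671 CPM, 227, 169.6 and 230.2 CPM and 219, 1161, 421 and 831 CPM (log2 fold change 2.37, SE 0.32, adjusted p = 0.0163). Control replicate 1 lay among the PD-L1low libraries. The *Gcg* call was lost without PD-L1low replicate 2, 3 or 4 (adjusted p up to 0.226) and without the replicate block (0.434). *Sst*, somatostatin, stood at 10.9, 33.5, 6.6 and 25.3 CPM, 7.12, 2.14 and 2.04 CPM and 9.07, 24.1, 3.2 and 10.1 CPM (log2 fold change 2.42, SE 0.34, adjusted p = 0.00136), with PD-L1high replicate 3 under PD-L1low replicate 2, and its call was lost without the replicate block (adjusted p = 0.781). Summed over 10 alpha cell markers the level was 1001 to 2036 CPM in PD-L1high, 792 to 883 CPM in PD-L1low and 820 to 1945 CPM in control libraries. *Gcg* is part of this sum and a large share of it, so the sum is no separate evidence. Of 7 tested alpha cell markers *Gcg* was the 1 called, and for the other tested markers the sorted groups overlapped. The median log2 fold change of the 7 was 0.33. In these bulk samples, fewer cells that make a transcript and less of it per cell cannot be told apart.

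Among the other 7, *Hmox1*, haem oxygenase, stood at 166, 68.8, 97.9 and 83.6 CPM in PD-L1high, 23.8, 28.1 and 27.9 CPM in PD-L1low and 43, 61.3, 59.6 and 61.4 CPM in control libraries (log2 fold change 1.83, SE 0.28, adjusted p = 0.0177). Controls lay between the sorted groups, and the call was lost without PD-L1high replicate 3, or PD-L1low replicate 2, 3 or 4 (adjusted p up to 0.297). *Gpx3*, a secreted glutathione peroxidase, stood at 11, 20.2, 16.6 and 18 CPM, 6.13, 2.44 and 6.67 CPM and 9.62, 14.5, 8.82 and 17.5 CPM (log2 fold change 1.91, SE 0.26, adjusted p = 0.00104). *Gpx2*, another glutathione peroxidase (log2 fold change 0.72, SE 0.16, adjusted p = 0.0474), lost its call without PD-L1high replicate 2 or 3, or PD-L1low replicate 2, 3 or 4, or control replicate 3 or 4 (adjusted p up to 0.379), without the replicate block (0.309), with the 7 sorted or the 6 paired libraries alone (up to 0.0846) and with another scaling or filter (up to 0.103). These 3 were called among 20 tested antioxidant genes, of which 19 had a positive log2 fold change, with a median of 0.27. *Gclm*, a subunit of the enzyme that limits glutathione synthesis, stood at 362, 298, 309 and 295 CPM in PD-L1high and 184, 201 and 212 CPM in PD-L1low cells without passing the test (adjusted p = 0.145, edgeR). DESeq2 called it (adjusted p = 0.0105), as did edgeR on the 7 sorted libraries alone (0.0146). *Gstp1*, a glutathione transferase that is on no list, stood at 82.5, 68.1, 83.3 and 80.4 CPM, 38.1, 42.6 and 46.3 CPM and, in control, 50.9, 71.2, 66.2 and 87.9 CPM (log2 fold change 0.95, SE 0.15, adjusted p = 0.00445). *Tspan8*, a tetraspanin, had a log2 fold change of 1.26 (adjusted p = 0.00132). *Id2*, an inhibitor of basic helix-loop-helix factors (log2 fold change 1.32, SE 0.22, adjusted p = 0.00558), lost its call without PD-L1high replicate 3 (adjusted p = 0.051), and *Etv1*, an ETS factor (log2 fold change 1.01, SE 0.19, adjusted p = 0.0168), lost it without PD-L1high replicate 3 or 4, or PD-L1low replicate 2 or 4 (adjusted p up to 0.146) and with the 7 sorted or the 6 paired libraries alone (up to 0.0645).

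*Nos2* varied widely among PD-L1high libraries. This gene, the inducible nitric oxide synthase, stood at 63.7, 6.52, 4.32 and 0.104 CPM in PD-L1high and 0.166, 0.518 and 0.211 CPM in PD-L1low cells (log2 fold change 3.48, SE 0.71, adjusted p = 0.0437). PD-L1high replicate 1, which has no PD-L1low partner, was far above the next library, and replicate 4 lay below all 3 PD-L1low libraries. The call was lost without PD-L1high replicate 1, 2 or 3, or PD-L1low replicate 2 or 3, or control replicate 3 or 4 (adjusted p up to 0.537), without the replicate block (0.736), in DESeq2 (0.38), in limma-voom (0.0636), with the 7 sorted libraries alone (0.0702) and with another scaling or filter (up to 0.0569). *Nos2* was the 1 called gene of 14 on the NF-κB list, whose median log2 fold change was 0.41 and on which DESeq2 and limma-voom called 0. *Enpp2*, which encodes autotaxin, was the remaining gene with overlapping groups (log2 fold change 0.58, SE 0.11, adjusted p = 0.018), lost without PD-L1high replicate 2 or 3, or PD-L1low replicate 2, 3 or 4 (adjusted p up to 0.206), without the replicate block (0.792) and with another scaling or filter (0.0557).

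The 15 genes lower in PD-L1high cells differed less. In the model, PD-L1low cells lay above control for all 15. Control was nearer to PD-L1low cells for 10 and nearer to PD-L1high cells for 5, *Idi1*, *Insig1*, *Gm42973*, *Ptp4a1* and *Olfm4*. These positions use the sorted libraries of the main comparison and are given as values. *St8sia1*, the synthase of ganglioside GD3 and a marker of beta cell subtypes, stood at 40.3, 49.7, 45.8 and 53 CPM in PD-L1high, 82.1, 88.1 and 115 CPM in PD-L1low and 59.6, 74.1, 68.8 and 79.1 CPM in control libraries (log2 fold change -0.93, SE 0.12, adjusted p = 0.000593). Its controls lay between both groups, and it was the 1 lower gene called in every setting that kept the threshold of 0.05 and set no minimum fold. *Rasd1*, a Ras-like protein induced by glucocorticoids, stood at 5.67, 9.7, 7.31 and 5.09 CPM, 18.2, 18.8 and 24.1 CPM and, in control, 17.6, 16.3, 18.8 and 17.1 CPM (log2 fold change -1.52, SE 0.24, adjusted p = 0.00352). It was the largest difference of the 15, and PD-L1high libraries lay below all others. The *Rasd1* call was lost with the 7 sorted or the 6 paired libraries alone (adjusted p up to 0.0527). *Igfbp5*, which binds insulin-like growth factors, fell from 15.2, 21.4 and 22.5 CPM in PD-L1low to 7.98, 4.85, 8.33 and 13.4 CPM in PD-L1high cells (log2 fold change -1.20, SE 0.23, adjusted p = 0.0191), a call lost without PD-L1high replicate 2, 3 or 4, or PD-L1low replicate 2 or 3 (adjusted p up to 0.199), without the replicate block (0.396) and with the 7 sorted or the 6 paired libraries alone (up to 0.0555). *Dnm3*, a dynamin (log2 fold change -0.78, SE 0.14, adjusted p = 0.0168), lost its call without PD-L1high replicate 2 or 3, or PD-L1low replicate 2 or 3 (adjusted p up to 0.175) and with the 7 sorted or the 6 paired libraries alone (up to 0.0755). *Fam210b*, a mitochondrial protein (log2 fold change -0.69, SE 0.13, adjusted p = 0.0198), lost it without PD-L1high replicate 2, 3 or 4, or PD-L1low replicate 3 or 4 (adjusted p up to 0.22) and without the replicate block (0.158). *Dbp*, a circadian transcription factor (log2 fold change -0.86, SE 0.18, adjusted p = 0.0369), lost it without PD-L1high replicate 1, 2, 3 or 4, or PD-L1low replicate 2, 3 or 4, or control replicate 1, 2, 3 or 4 (adjusted p up to 0.339), without the replicate block (0.434) and with the 7 sorted or the 6 paired libraries alone (up to 0.13). *Olfm4*, a secreted glycoprotein (log2 fold change -0.69, SE 0.15, adjusted p = 0.0414), lost it without PD-L1high replicate 1, 2, 3 or 4, or PD-L1low replicate 2, 3 or 4, or control replicate 1 or 4 (adjusted p up to 0.357) and without the replicate block (0.542), and *Pcsk4*, a proprotein convertase (log2 fold change -1.39, SE 0.30, adjusted p = 0.042), lost it without PD-L1high replicate 1, 2, 3 or 4, or PD-L1low replicate 2 or 4, or control replicate 1, 3 or 4 (adjusted p up to 0.476), without the replicate block (0.865), in limma-voom (0.0609), with the 7 sorted or the 6 paired libraries alone (up to 0.0705) and with another scaling or filter (0.0515).

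*Scd2*, *Idi1* and *Insig1* were lower genes of lipid synthesis. *Scd2*, a desaturase that makes monounsaturated fatty acids, stood at 143, 141, 146 and 169.8 CPM in PD-L1high, 263, 298 and 284 CPM in PD-L1low and 165, 199, 202 and 275 CPM in control libraries (log2 fold change -0.85, SE 0.12, adjusted p = 0.00207), lost without PD-L1low replicate 3 (adjusted p = 0.051). *Idi1*, an isomerase of the mevalonate pathway, stood at 34.1, 30, 39.3 and 37 CPM, 47.5, 69.6 and 74.5 CPM and, in control, 48.7, 44.3, 44.4 and 47.7 CPM (log2 fold change -0.86, SE 0.14, adjusted p = 0.00477), lost without PD-L1low replicate 3 or 4 (adjusted p up to 0.0783). *Insig1* is an ER protein that restrains sterol synthesis and is itself a target of that pathway's regulator SREBP. It stood at 51.9, 57.2, 59.6 and 83.7 CPM, 84.8, 108 and 121 CPM and, in control, 72.7, 71.8, 68.6 and 102 CPM (log2 fold change -0.68, SE 0.12, adjusted p = 0.01). The *Insig1* call was lost without PD-L1high replicate 2 or 3, or PD-L1low replicate 3 (adjusted p up to 0.176) and without the replicate block (0.128). Of 18 tested sterol genes, 2 were lower and 0 higher, 16 had a negative log2 fold change, 10 lay lower without overlap (3.59% of all tested genes did) and the median was -0.32. *Hmgcs1*, an early enzyme of the pathway, stood at 78, 81.1, 63.4 and 89.6 CPM in PD-L1high and 92.2, 112 and 123 CPM in PD-L1low cells, which did not pass the test (log2 fold change -0.45, adjusted p = 0.247). The same held for *Cyp51*, a demethylase of the sterol ring (log2 fold change -0.45, adjusted p = 0.291). On the fatty acid list of 9, edgeR called *Scd2* alone, and *Scd1* had a log2 fold change of -1.26 (adjusted p = 0.103). DESeq2 also called *Scd1* lower (adjusted p = 0.0251), and both DESeq2 and limma-voom called *Me1* higher.

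The remaining 4 of the 15 were 3 gene models without a name and *Ptp4a1*. *Gm34759* (log2 fold change -1.20, SE 0.24, adjusted p = 0.0357) lost its call without PD-L1high replicate 2, 3 or 4, or PD-L1low replicate 2 or 4, or control replicate 4 (adjusted p up to 0.282), without the replicate block (0.54) and with another scaling or filter (0.0665). The groups overlapped for *Gm42973* (log2 fold change -1.17, SE 0.23, adjusted p = 0.0229), lost without PD-L1high replicate 3 or 4, or PD-L1low replicate 2, 3 or 4, or control replicate 1 or 4 (adjusted p up to 0.148), without the replicate block (1) and with the 6 paired sorted libraries alone (0.0501), for *Gm43481* (log2 fold change -1.34, SE 0.28, adjusted p = 0.0365), lost without PD-L1high replicate 1, 2, 3 or 4, or PD-L1low replicate 2 or 4, or control replicate 1, 3 or 4 (adjusted p up to 0.35), without the replicate block (1) and with the 7 sorted or the 6 paired libraries alone (up to 0.117), and for *Ptp4a1*, a phosphatase (log2 fold change -0.86, SE 0.17, adjusted p = 0.0295), lost without PD-L1high replicate 1, 2, 3 or 4, or PD-L1low replicate 2, 3 or 4, or control replicate 1 (adjusted p up to 0.331) and without the replicate block (1). The annotation has 2 gene entries of the name *Ptp4a1* at overlapping positions. The lower one held 30.6, 19.5, 15.7 and 18.7 CPM in PD-L1high cells, and the other, with a PD-L1high mean of 264 CPM, had a log2 fold change of 0.32 and was not called, so how reads were divided between them could set this value.

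**Figure D5:**
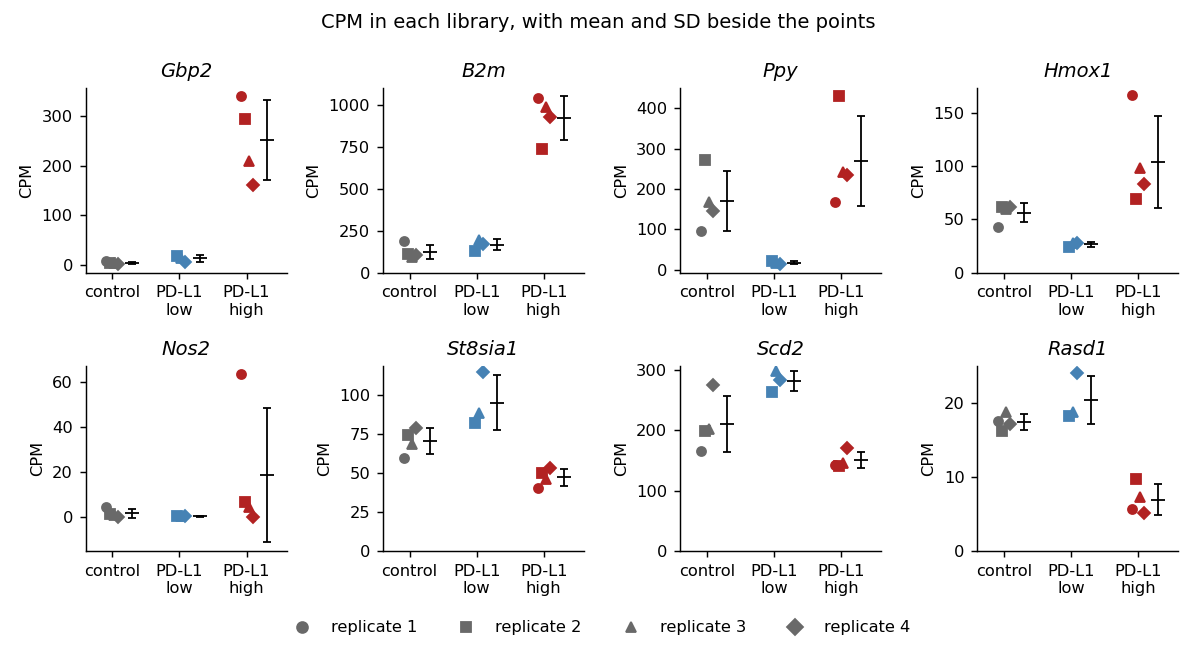
CPM of 8 genes in each control, PD-L1low and PD-L1high library (4, 3 and 4), with a marker for each replicate number and the mean and SD beside the points. *Gbp2* and *B2m* are highest in PD-L1high cells, *Ppy* is lowest in PD-L1low cells at 14.0 to 20.8 CPM, *Nos2* is highest in replicate 1 of PD-L1high, at 63.7 CPM, and *St8sia1*, *Scd2* and *Rasd1* are lowest in PD-L1high cells.

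Beta cell genes held 1 call. The lists of transcription factors, insulin and granules, glucose sensing, autoantigens and maturity markers had 57 tested genes. Of these, 0 were higher and 1, *St8sia1*, was lower (edgeR; 11 at an unadjusted p under 0.05), and the median log2 fold change was 0.07. The 11 of 57 are a larger share than the 8.52% of all tested genes with such a p. For the 15 transcription factors the 95% intervals lay between -0.40 and 0.76, so a 2-fold difference lies outside each. *Gipr*, a receptor for the incretin GIP, stood at 29.1, 22.3, 26.7 and 23.2 CPM in PD-L1high and 52.1, 42.6 and 43.4 CPM in PD-L1low cells. The groups lay apart but the difference did not pass the test (log2 fold change -1.07, interval from -1.65 to -0.49, adjusted p = 0.158). *Glp1r*, the receptor for the incretin GLP-1, stood at 910.2, 1390, 1075 and 1163 CPM and 1768, 1497 and 1518 CPM (log2 fold change -0.38, adjusted p = 0.294). DESeq2 called both receptors lower (adjusted p = 0.00316 for *Gipr* and 0.0122 for *Glp1r*), and limma-voom neither. edgeR called *Gipr* on the 7 sorted libraries alone (adjusted p = 0.0186). *Gad1*, which encodes the autoantigen GAD67, had a log2 fold change of -0.37 (adjusted p = 0.258).

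Stress and growth lists held no call between the populations. edgeR called 0 of 15 hypoxia targets, 0 of 12 glycolysis genes, 0 of 16 genes of ER stress, 0 of 10 heat shock genes, 0 of 17 immediate early genes and 0 of 19 cell cycle genes, with 0, 0, 2, 1, 5 and 4 at an unadjusted p under 0.05. Of all tested genes, 8.52% had such a p. The lists of ER stress, heat shock, immediate early and cell cycle genes exceeded this share. DESeq2 called 1 of these genes, the immediate early gene *Fosb*, lower, and limma-voom 0. The median log2 fold change was -0.15 for hypoxia targets and -0.48 for immediate early genes, and 15 of the 16 ER stress genes had a positive value, with a median of 0.19. *Vegfa*, a hypoxia target, stood at 319, 312, 314 and 315 CPM in PD-L1high and 368, 331 and 377 CPM in PD-L1low cells (log2 fold change -0.25, adjusted p = 0.604), with no overlap between groups. All 15 tested mitochondrially encoded genes were likewise without a call (edgeR; 0 at an unadjusted p under 0.05, and 0 called by DESeq2 or limma-voom).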

How the data were processed

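Libraries were made from 5 ng of total RNA with a random-primed, strand-specific kit with depletion of ribosomal RNA. Reads were aligned by the authors with STAR 2.5.2b to GRCm38.p6 and counted per gene with RSEM, whose version is not given in the sources used here. The deposited values are expected counts, estimates that divide ambiguous reads between genes, and TPM, both made by the authors and not scaled between libraries. Expected counts were rounded (totals changed by at most 0.000388%). TPM served for levels per length.

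Genes were filtered with edgeR's filterByExpr (count minimum 10). Condition and replicate number were terms of a robust quasi-likelihood model of all 11 libraries after TMM scaling (edgeR 4.0.16, R 4.3.3; common BCV 0.258, 5 residual degrees of freedom), the replicate number standing for the batch term of the study's methods, which those do not define. Benjamini-Hochberg adjustment was over all tested genes, with a threshold of 0.05. Alternatives used DESeq2 1.42.0, limma 3.58.1, other scalings, filters and thresholds, no replicate block, fewer libraries, and each library or replicate number left out. Named genes were all lower genes, the 20 largest differences with a mean of at least 5 CPM and all pairs agreeing, the 4 smallest p of each list, genes named in the study, the 20 smallest p on no list and the gate proteins, with other genes named only where a count is small. Some genes that this rule names are not reported here. The comparison, gene lists and rules were chosen with earlier results of these data known. Symbols came from a reference list of gene names, with gaps filled from GENCODE M21, which also gave the positions. Both were found for 55227 of 55487 genes. The p values measure the spread between these samples. Figures were drawn with Python 3.11.15 and matplotlib 3.10.9.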

Additional observations from a re-analysis of the deposited data

Results flagged for a closer look

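In 9 of the 119 called genes, 1 of the 4 PD-L1high libraries stood apart from the other 3 by Dixon's test at the 95% level, where chance flags about 1 gene in 20. PD-L1high replicate 1 was the library in 5 of them. It held *Gbp5* at 86.3 CPM (14.8 to 25.6 CPM in the others), *Nos2* at 63.7 CPM (0.104 to 6.52), *Pigr* at 103 CPM (62.5 to 65.6), *Serping1* at 299 CPM (245 to 249.8) and *Fam210b*, its 1 low value here, at 81.6 CPM (119 to 123). PD-L1high replicate 4 held *Irf7* at 32.7 CPM (41.7 to 43.2), *Tap2*, a subunit of the peptide transporter, at 29.1 CPM (50.6 to 54.8) and *Dnm3* at 55.6 CPM (40.6 to 42.6). PD-L1high replicate 3 held *Ifi27* at 54.7 CPM (33.6 to 36.3).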

How the results depend on the processing

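Counts of calls moved with the settings, and the cause was not tested beyond the construction of each. Main counts were 119 called genes, 104 higher and 15 lower, with 64 higher on interferon lists and 40 on none. DESeq2 with the block called 203 (158 higher, 45 lower, 80 higher on no interferon list), and without it 65 higher on none. Without a filter 354 of 27677 genes were called (192 higher, 162 lower, 100 higher on no interferon list), so that 54.2% of calls were higher. At an adjusted p under 0.01, 76 genes were called (5 lower, 21 higher on no interferon list), and at 2-fold or more 6 were lower and 18 higher on none.

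Without the replicate block, 88 were called, 83 higher and 5 lower, of which 82 and 5 were among the main calls. The replicate numbers did not show a pairing by the check on deviations from group means: same-numbered PD-L1high and PD-L1low libraries correlated at 0.0218, 0.0747 and 0.144 for replicates 2, 3 and 4. The block was kept because the study's methods use a batch term.

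Leaving out 1 library gave 64 to 143 calls, 59 to 132 higher, 5 to 22 lower, 42 to 83 higher on interferon lists and 17 to 49 higher on none. The lowest total, 64, was without PD-L1high replicate 3, then 76 without PD-L1high replicate 2, and 77, 78 and 78 without PD-L1low replicates 2, 3 and 4. Leaving out a replicate number gave 66 calls (without replicate 3) to 140 (without replicate 1), 57 to 129 higher, 6 to 11 lower and 14 to 46 higher on no interferon list. Of the 119 called genes, 46 kept their call in every setting that tested them at an adjusted p under 0.05 with no minimum fold (45 higher and *St8sia1*, whose difference was under 2-fold). DESeq2 with the block called 101 of the 104 and 15 of the 15. edgeR called 148 genes with the 7 sorted libraries alone, among them 98 of the 104 and 9 of the 15, and 147 with the 6 paired ones, among them 98 and 8. None of the 119 changed direction in any setting. With 3 PD-L1low libraries, a gene that misses the threshold is not shown to be equal, and intervals cover the spread between these libraries only.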
